A study of Mus musculus with 22 samples.

Results

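The guanylate-binding proteins (GBPs) are large GTPases of the dynamin superfamily whose genes are switched on by interferons. The genes examined were the 7 family members Gbp2, Gbp3, Gbp4, Gbp5, Gbp6, Gbp7 and Gbp9, taken by symbol from the array's platform annotation, among 19935 genes tested in the mouse hypothalamus. Of these 7, 5 (Gbp3, Gbp4, Gbp5, Gbp7 and Gbp9) each had 1 probe set that listed no other gene. Gbp2 and Gbp6 appeared only on probe sets that list several family genes, so neither had a value of its own, and both are described through those shared probe sets.

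The 4 groups were IL-6 KO mice, which by their label lack interleukin-6, given lipopolysaccharide (LPS, n = 7 arrays), wild-type (WT) littermates given LPS (n = 7), KO mice given saline (n = 4) and WT mice given saline (n = 4). All were males of the strain written C57bl6 in the labels, aged 9 to 12 weeks. LPS of Escherichia coli, a bacterial cell wall component that causes inflammation and fever, was injected once into the abdomen at 120 µg/kg, and the hypothalamus, which controls body temperature among other functions, was taken 3 h later after saline perfusion. How the Il6 gene was altered is not in the labels. Nor do they state that different arrays carry different animals, and p-values therefore describe the variation among these arrays, part of which may be technical. The design text relates genotype differences in LPS-treated hypothalamus to the fever that IL-6-deficient animals do not develop.

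In mouse cells GBPs assemble on the membranes of vacuoles that hold microbes and on bacteria that reach the cytosol. There they help expose bacterial LPS to an inflammatory caspase, which cleaves gasdermin D and starts the cell death called pyroptosis. The genes lie in 2 clusters, with Gbp2, Gbp3, Gbp5 and Gbp7 on chromosome 3 and Gbp4, Gbp6 and Gbp9 on chromosome 5, in the RefSeq annotation of assembly GRCm38.p6. Both interferon types act on such genes through transcription factors that bind short promoter elements. The interferon-stimulated response element (ISRE) holds repeats of GAAA, and the gamma-activated site (GAS) is an inverted repeat bound by STAT dimers.

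The promoter windows at hand for the members, all on chromosome 3, are shown to set these elements beside the LPS responses, from 250 bases before to 50 bases after the start site, 5′ to 3′ on the gene's strand, from RefSeq on GRCm38.p6. Capitals mark matches, on either strand, to an ISRE-type pattern (GAAA, any 2 bases, GAAA) or to the GAS pattern TTCNNNGAA, and overlapping matches are joined. Windows were found for 4 of the 7 members (Gbp3 with 2 start sites), and Gbp2b, a neighbour of Gbp2 that shares a probe set with it, is added for comparison. Gbp4, Gbp6 and Gbp9 had no window.
Gbp5 (chr3:142496684-142496983, plus strand): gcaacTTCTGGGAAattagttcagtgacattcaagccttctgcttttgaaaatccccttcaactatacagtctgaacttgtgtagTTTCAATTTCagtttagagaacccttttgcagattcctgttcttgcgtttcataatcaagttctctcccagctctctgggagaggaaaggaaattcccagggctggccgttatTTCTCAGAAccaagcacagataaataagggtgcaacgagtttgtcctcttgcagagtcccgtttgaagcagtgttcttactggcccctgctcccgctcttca
Gbp7 (chr3:142530086-142530385, plus strand): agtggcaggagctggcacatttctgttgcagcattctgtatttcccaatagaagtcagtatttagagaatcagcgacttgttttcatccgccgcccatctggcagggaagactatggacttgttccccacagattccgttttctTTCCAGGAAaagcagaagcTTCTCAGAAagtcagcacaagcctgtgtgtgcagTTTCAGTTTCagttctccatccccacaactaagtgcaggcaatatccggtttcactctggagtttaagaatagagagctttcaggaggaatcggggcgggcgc
Gbp3, first start site (chr3:142559794-142560093, plus strand): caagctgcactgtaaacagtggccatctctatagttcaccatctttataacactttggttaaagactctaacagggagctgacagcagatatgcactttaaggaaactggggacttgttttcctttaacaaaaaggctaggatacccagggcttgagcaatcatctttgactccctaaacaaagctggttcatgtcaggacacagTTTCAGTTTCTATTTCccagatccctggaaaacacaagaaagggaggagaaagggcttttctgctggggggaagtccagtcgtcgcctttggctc
Gbp2 (chr3:142620413-142620712, plus strand): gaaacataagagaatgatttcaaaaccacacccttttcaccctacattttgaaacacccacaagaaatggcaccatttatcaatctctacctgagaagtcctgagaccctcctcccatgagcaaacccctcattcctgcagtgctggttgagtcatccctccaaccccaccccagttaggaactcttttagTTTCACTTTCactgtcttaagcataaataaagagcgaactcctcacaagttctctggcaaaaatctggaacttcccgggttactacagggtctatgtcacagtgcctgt
Gbp2b (chr3:142594597-142594896, plus strand): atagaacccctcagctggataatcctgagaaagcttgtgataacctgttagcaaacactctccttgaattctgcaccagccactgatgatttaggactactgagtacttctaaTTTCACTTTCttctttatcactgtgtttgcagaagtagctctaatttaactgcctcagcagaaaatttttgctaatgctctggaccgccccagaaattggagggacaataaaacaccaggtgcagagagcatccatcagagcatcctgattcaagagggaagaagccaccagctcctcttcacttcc
An ISRE-type match lay in 4 of the 5 member windows and a GAS match in 2 of them, against 3.44% and 8.30% of 32851 promoter windows of the same length in the whole RefSeq table. The member windows belong to related genes of 1 cluster, and Gbp3 gives 2 of them, so they are not independent of each other. Whether the members exceed the share of all windows was not tested. With bases before the start site counted as negative, the ISRE-type match of Gbp2 ran from -59 to -50 and that of Gbp7 from -53 to -44. Gbp3 held 2 overlapping ones between -45 and -30 of its first start site, and its second window held neither pattern. Gbp5 held 1 ISRE-type match from -165 to -156 and GAS matches from -245 to -237 and from -52 to -44. Gbp7 held GAS matches from -106 to -98 and from -87 to -79. Gbp2b also held 1 ISRE-type match, from -137 to -128. A match describes the letters of a window and is not evidence of a bound site.

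In the deposited table each value is relative, on a scale read as log2, to the median of its probe set across the 22 arrays. Absolute levels are therefore lost, and no gene's level could be set against another's. Nor could the tissue be checked against levels of hypothalamic markers. Il6, the gene named in the genotype, averaged 0.24 ± 0.20 in KO and 0.072 ± 0.14 in WT after LPS (SD, n = 7 each; adjusted p = 0.397, limma). After saline it averaged -0.12 ± 0.037 in KO and -0.14 ± 0.035 in WT (SD, n = 4 each). Il6 was higher after LPS than after saline by 0.36 in KO (SE 0.08, adjusted p = 0.0193, limma), a call, and by 0.21 in WT (SE 0.08, adjusted p = 0.457). Since its probes may lie outside the altered part of the gene, this does not check the genotype labels. On 3 arrays the mean of the choroid plexus or pituitary markers was above 1 (KO LPS replicate 3, KO saline replicate 2 and WT saline replicate 1). The titles number the arrays 1 to 22. With the 4 groups in the fit, 21.5% of all genes had a called difference between the higher numbers (12 to 22) and the lower (1 to 11). None of the 5 members passed that test (limma, adjusted p from 0.0533 for Gbp9 to 0.901 for Gbp4), and Gbp9 alone had an unadjusted p under 0.05 (0.0117).

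LPS raised all 5 separately measured members in both genotypes. The increase ran from 2.37-fold (Gbp7) to 8.75-fold (Gbp5) in KO, and from 2.71-fold to 8.77-fold for the same genes in WT. Other family genes with a probe set of their own are described further below. The 5 members ranked 3rd to 32nd of 19935 genes by log2 difference in KO and 4th to 23rd in WT. All 5 passed the test in each genotype, where 1.08% of all genes in KO and 1.42% in WT were called higher (limma, adjusted p under 0.05), and 1.34% in KO and 1.8% in WT were called in either direction. In all 5 genes every LPS array lay above every saline array of its genotype, which held for 1.21% of genes in KO and 1.63% in WT. The plot of values by array shows this gap for each member.

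**Figure D1:**
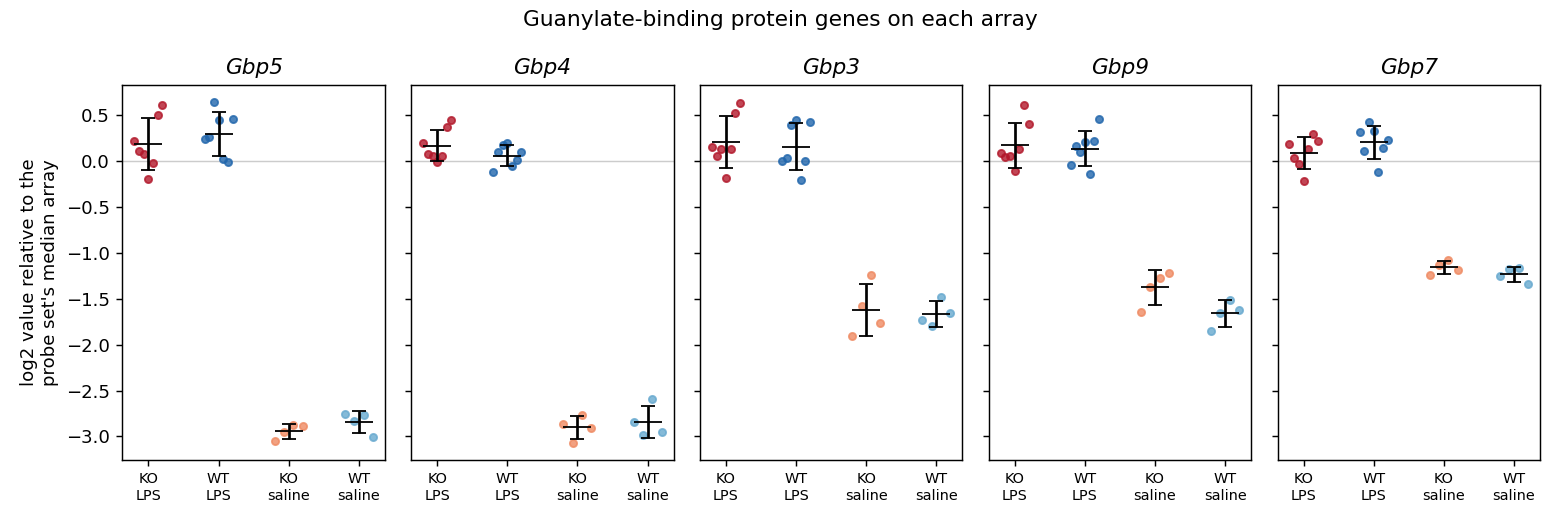
Log2 value relative to the probe set's median array (vertical axis) for the 5 separately measured members. Each array is 1 point, in replicate order, with the mean ± SD as bars. KO LPS and WT LPS (n = 7 each) lie above KO saline and WT saline (n = 4 each) in every panel with no overlap, and KO and WT overlap within each treatment.

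Gbp5, which in mice promotes assembly of the NLRP3 inflammasome, had the largest log2 difference of the 5. In KO it ranged from -0.19 to 0.61 after LPS (median 0.11), against -3.05, -2.96, -2.88 and -2.88 after saline. In WT it ranged from -0.017 to 0.64 after LPS (median 0.26), against -2.76, -2.83, -2.77 and -3.01 after saline. The saline arrays lay within 0.25 of each other in each genotype, and the gap to the lowest LPS array was 2.69 in KO and 2.74 in WT. The log2 difference was 3.13 in KO (SE 0.13, adjusted p = 3.65e-14, limma) and 3.13 in WT (SE 0.13, adjusted p = 2.38e-14).

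Gbp4, which has been reported to restrain the antiviral transcription factor IRF7, responded almost as much. In KO it ranged from -0.0097 to 0.44 after LPS (median 0.075), against -2.87, -3.07, -2.77 and -2.90 after saline. WT arrays ran from -0.12 to 0.19 after LPS (median 0.095), against -2.84, -2.99, -2.60 and -2.95 after saline. It had the tightest LPS group of the 5 in WT, with an SD of 0.12, and the smallest adjusted p of the 5 in both genotypes. The log2 difference was 3.07 in KO (SE 0.09, adjusted p = 2.38e-17, limma), an 8.39-fold increase, and 2.90 in WT (SE 0.09, adjusted p = 8.71e-17), a 7.46-fold increase.

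Gbp3, a chromosome 3 member that in mice is recruited to the vacuole of the parasite Toxoplasma gondii, rose by an intermediate amount. In KO it ranged from -0.19 to 0.63 after LPS (median 0.13), against -1.91, -1.58, -1.24 and -1.76 after saline. In WT it ranged from -0.20 to 0.45 after LPS (median 0.037), against -1.73, -1.80, -1.48 and -1.65 after saline. Replicate 3 was the highest saline array in both genotypes, and the gap to the lowest LPS array was 1.06 in KO and 1.28 in WT. The increase was 3.55-fold in KO (log2 1.83, SE 0.14, adjusted p = 6.03e-09, limma) and 3.54-fold in WT (log2 1.82, SE 0.14, adjusted p = 5.56e-09).

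Gbp9, a chromosome 5 member that is also recruited to the Toxoplasma vacuole, had the widest spread among KO saline arrays after Gbp3. In KO it ranged from -0.11 to 0.61 after LPS (median 0.089), against -1.64, -1.37, -1.28 and -1.22 after saline. WT arrays ran from -0.14 to 0.45 after LPS (median 0.16), against -1.86, -1.65, -1.51 and -1.62 after saline. Of the KO saline arrays, 3 lay above all WT saline arrays and the other lay among them. The increase was 2.93-fold in KO (log2 1.55, SE 0.12, adjusted p = 2.41e-09, limma) and 3.47-fold in WT (log2 1.80, SE 0.12, adjusted p = 1.32e-10).

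Gbp7, which in mice has been linked to assembly of the NADPH oxidase and to delivery of autophagy proteins, rose least. In KO it ranged from -0.21 to 0.29 after LPS (median 0.13), against -1.24, -1.13, -1.08 and -1.19 after saline. In WT it ranged from -0.13 to 0.42 after LPS (median 0.23), against -1.25, -1.17, -1.17 and -1.34 after saline. The gap between the treatments, 0.86 in KO and 1.05 in WT, was still wider than the spread within any group, at most 0.55. The increase was 2.37-fold in KO (log2 1.24, SE 0.09, adjusted p = 9.02e-10, limma) and 2.71-fold in WT (log2 1.44, SE 0.09, adjusted p = 5.21e-11).

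The size of the response differed between members. In each genotype, 10 pairs were compared by an exact permutation of the treatment labels on the difference between 2 genes (330 regroupings, two-sided, smallest possible p = 0.00303), with adjustment over all 20 comparisons. Gbp5 and Gbp4 each responded more than Gbp3, Gbp9 and Gbp7 in both genotypes, by 1.24 to 1.88 in KO and by 1.08 to 1.70 in WT on the log2 scale (exact permutation adjusted p = 0.00466 for each of these 12 comparisons). The responses of Gbp5 and Gbp4 differed by 0.060 in KO (exact permutation adjusted p = 0.463) and by 0.23 in WT (adjusted p = 0.0640), neither past the threshold. Gbp3 responded more than Gbp9 in KO by 0.28 (exact permutation adjusted p = 0.0189), while in WT the difference was 0.026 (adjusted p = 0.797). Whether the difference between these 2 genes varied with genotype was not tested. Gbp7 responded less than Gbp9, by 0.31 in KO (exact permutation adjusted p = 0.0121) and 0.36 in WT (adjusted p = 0.0321). Probe sets differ in how fully they follow a change in RNA, so these are differences between probe sets.

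**Figure D2:**
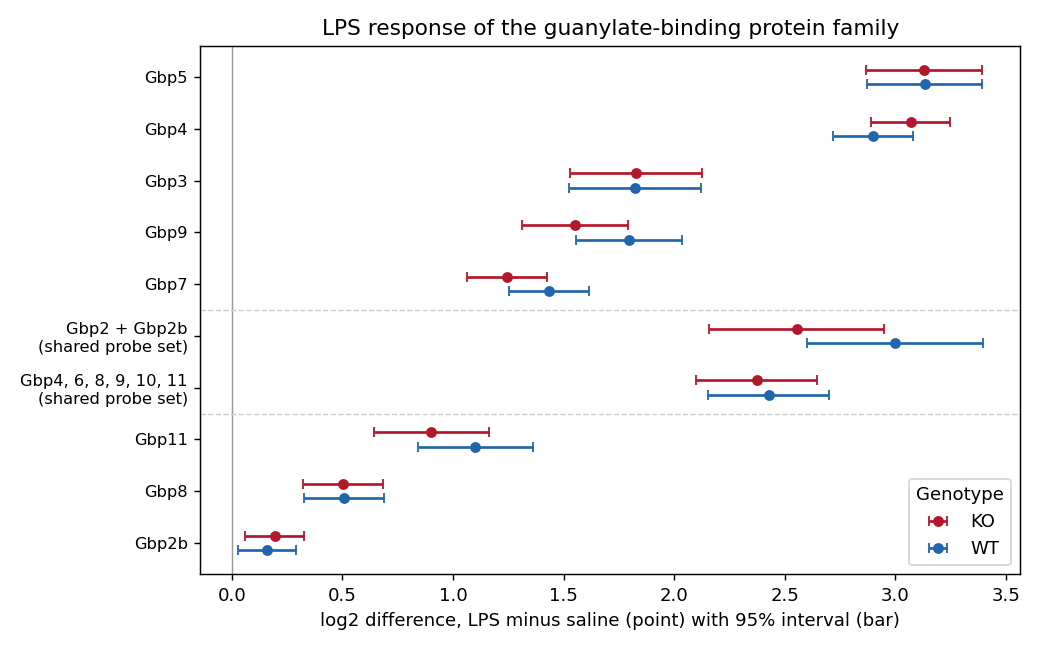
Log2 difference, LPS minus saline (horizontal axis), with its 95% interval for KO (red, upper of each pair) and WT (blue, lower), for the 5 members, the 2 shared probe sets and 3 further family genes, separated by dashed lines. Gbp5 and Gbp4 lie between 2.90 and 3.13, Gbp3, Gbp9 and Gbp7 between 1.24 and 1.83, and Gbp2b at 0.19 in KO and 0.16 in WT.

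Gbp2, which coats bacteria and vacuoles in infected mouse cells, was covered by 1 probe set that also lists Gbp2b. That probe set ranged from -0.56 to 0.75 in KO after LPS (median 0.061), against -2.44, -2.49, -2.18 and -2.68 in KO after saline. WT arrays ran from 0.024 to 0.81 after LPS (median 0.33), against -2.63, -2.39, -2.41 and -2.76 after saline. It was 5.87-fold higher after LPS in KO (log2 2.55, SE 0.19, adjusted p = 6.24e-09, limma over 28815 probe sets) and 7.99-fold higher in WT (log2 3.0, SE 0.19, adjusted p = 3.70e-10). The probe set that lists Gbp2b alone had a difference of 0.19 in KO (SE 0.06, adjusted p = 0.268) and 0.16 in WT (SE 0.06, adjusted p = 0.518), neither past the threshold. Of all probe sets, 0.951% in KO and 1.26% in WT were called higher.

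Gbp6 was covered by 1 probe set that lists the 6 chromosome 5 genes Gbp4, Gbp6, Gbp8, Gbp9, Gbp10 and Gbp11. It ranged from -0.25 to 0.55 in KO after LPS (median 0.15), against -2.30, -2.22, -2.02 and -2.35 in KO after saline. WT arrays ran from 0.066 to 0.63 after LPS (median 0.39), against -2.13, -2.12, -1.86 and -2.19 after saline. It was 5.18-fold higher after LPS in KO (log2 2.37, SE 0.13, adjusted p = 3.58e-11, limma over 28815 probe sets) and 5.38-fold higher in WT (log2 2.43, SE 0.13, adjusted p = 2.63e-11). The share of each of the 6 genes in this value could not be separated. The same doubt touches Gbp4 and Gbp9, since near-identical copies on chromosome 5 may also bind the probes listed for 1 gene.

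Among further relatives with a probe set of their own, Gbp11, annotated as a transcribed pseudogene, rose by 0.90 in KO (SE 0.13, adjusted p = 6.84e-05, limma) and 1.10 in WT (SE 0.13, adjusted p = 2.56e-06). Gbp8 rose by 0.50 in KO (SE 0.09, adjusted p = 0.00111, limma) and 0.51 in WT (SE 0.09, adjusted p = 0.000818). The atlastin genes Atl1 and Atl3, related GTPases that shape the endoplasmic reticulum, had differences of -0.080 and -0.078 in KO and -0.042 and -0.092 in WT, with adjusted p of 0.9998 in KO and 0.9997 in WT. Of the 5 relatives measured, 2 rose in each genotype and none fell, where 1.08% of all genes in KO and 1.42% in WT were called higher.

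The arrays of a group also differed from each other in the same sense across members. After subtraction of group means, the 10 pairs of members had Pearson correlations from 0.56 to 0.82 (median 0.76) over the 22 arrays, which share their RNA and normalization. Genes outside the family also followed the mean of the members in this way, as given below, so it is not particular to the GBPs. KO LPS replicates 6 and 7 lay above their group mean for 5 of 5 members and replicates 2, 3 and 4 below it for 5 of 5. WT LPS replicates 4 and 7 lay above for 5 of 5 and replicate 5 below for 5 of 5. After saline, replicate 3 of each genotype lay above for 5 of 5, and no replicate lay below for 5 of 5. The mean over the 5 members ran from -0.14 (replicate 4) to 0.46 (replicate 7) in KO after LPS and from -0.10 (replicate 5) to 0.34 (replicate 3) in WT after LPS, a spread that the plot of deviations by array shows.

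**Figure D3:**
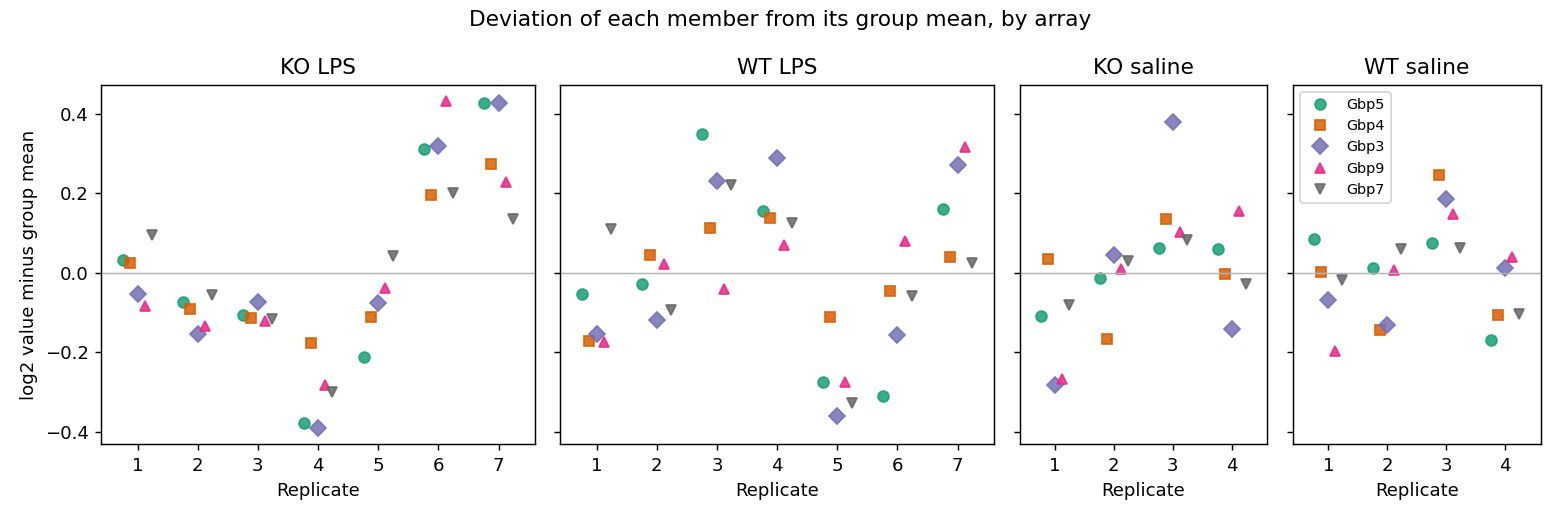
Log2 value minus the group mean (vertical axis) for the 5 members, by replicate, in each of the 4 groups. Members of 1 array tend to lie on the same side of 0, most clearly in KO LPS replicates 4, 6 and 7 and in WT LPS replicate 5.

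The genes whose values followed the mean of the 5 members most closely over the 22 arrays were Rsad2 (r = 0.998), Iigp1 (0.996), Parp14, Slfn5, Cxcl10, Ifit3, Ifit1 and Trim30a (0.990). All 8 are induced by interferons, and their mean differences between LPS and saline were 1.60 to 4.41 in KO and 1.90 to 4.88 in WT on the log2 scale. After subtraction of group means the closest were Rsad2 (r = 0.930), Ifit3 (0.927), Trim30a (0.905), Parp14 (0.879), Samhd1, Iigp1, Ifih1 and Ddx58 (0.848). Rsad2, Ifit3, Trim30a, Parp14 and Iigp1 were in both groups of 8. Ifih1 and Ddx58 encode the cytosolic RNA sensors MDA5 and RIG-I, and Samhd1 a nucleotide hydrolase that restricts viruses. These genes were picked for their correlation among all genes tested, so the values are descriptions.

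Between the genotypes after LPS, the comparison named in the design text, 0 of the 5 members were called, and 0 had an unadjusted p under 0.05 (limma; 0.0401% of all genes were called in either direction and 11.4% had such an unadjusted p). That share rests on 8 genes, a count that was 47 without KO LPS replicate 1, 2 without KO LPS replicate 6 and 614 with array weights. KO and WT arrays overlapped for each of the 5, as they did for all but 0.13% of all genes. The KO minus WT differences were -0.11 for Gbp7 (SE 0.07), -0.11 for Gbp5 (SE 0.11), 0.038 for Gbp9 (SE 0.10), 0.047 for Gbp3 (SE 0.12) and 0.11 for Gbp4 (SE 0.07), with adjusted p from 0.558 to 0.912. The 95% intervals ran from -0.33 at the lowest (Gbp5, 0.796-fold) to 0.30 at the highest (Gbp3, 1.23-fold). The probe set listing Gbp2 and Gbp2b was lower in KO by 0.35 (-0.35, SE 0.16, unadjusted p = 0.0459, adjusted p = 0.470, limma over 28815 probe sets), which did not pass (0.0312% of probe sets called). The 6-gene probe set differed by -0.20 (SE 0.11, adjusted p = 0.535).

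Between the genotypes after saline, 0 of 5 members were called (limma, 0.00502% of all genes called), with 1 at an unadjusted p under 0.05, against 5.17% of all genes. That gene was Gbp9, at -1.38 ± 0.19 in KO and -1.66 ± 0.14 in WT (SD, n = 4 each), a difference of 0.28 (SE 0.13, unadjusted p = 0.0409, adjusted p = 0.840). KO and WT arrays overlapped for each of the 5, and 2.97% of all genes did not overlap. Within arrays 1 to 11, where KO has 1 saline array, the Gbp9 difference was 0.031, and within arrays 12 to 22, where WT has 1, it was 0.33. The other 4 members differed by -0.10 to 0.077, with adjusted p from 0.899 to 0.971. The probe set listing Gbp2 and Gbp2b differed by 0.099 (SE 0.22, adjusted p = 0.958, limma over 28815 probe sets) and the 6-gene probe set by -0.15 (SE 0.15, adjusted p = 0.897), where 0.00347% of probe sets were called.

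Whether LPS acted more or less on the GBPs in KO than in WT was tested by the interaction of genotype and LPS. With limma 0 of 5 members were called and 0 had an unadjusted p under 0.05 (0% of all genes called, 1.64% with such an unadjusted p). The response in KO minus that in WT was -0.25 for Gbp9 (SE 0.16), -0.19 for Gbp7 (SE 0.12), -0.0034 for Gbp5 (SE 0.18), 0.0036 for Gbp3 (SE 0.20) and 0.17 for Gbp4 (SE 0.12). The adjusted p was 0.999994 for each. The 95% interval was -0.37 to 0.37 for Gbp5, -0.42 to 0.43 for Gbp3, -0.083 to 0.42 for Gbp4, -0.45 to 0.065 for Gbp7 and -0.58 to 0.094 for Gbp9. For Gbp5 the interval corresponds to a KO response from 0.772-fold to 1.29-fold that of WT. For the probe set listing Gbp2 and Gbp2b the difference was -0.44 (SE 0.27, 95% interval -1.01 to 0.12, adjusted p = 0.99996), and for the 6-gene probe set it was -0.054 (SE 0.19).

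Genes that act before the GBPs were examined as lists. Of 6 interferon ligands and receptors, 0 were called after LPS in KO (0 at an unadjusted p under 0.05) and 0 in WT (1 at an unadjusted p under 0.05, limma), where 5.84% and 6.42% of all genes had such a p. The list medians were 0.0091 in KO and 0.0060 in WT, against -0.0089 and -0.011 over all genes. Ifng, the type II interferon that is the classical inducer of GBPs, had a difference of -0.017 in KO (SE 0.06, adjusted p = 0.9998) and 0.060 in WT (SE 0.06, adjusted p = 0.9997). Its receptor chains Ifngr1 and Ifngr2 had differences of 0.073 and 0.082 in KO and 0.0076 and 0.018 in WT. Ifnar1, a chain of the type I receptor, had the smallest p, with -0.068 in KO and -0.099 in WT (adjusted p = 0.728). Ifnb1, a type I interferon, had 0.0013 in KO and 0.0043 in WT. Ifng and Ifnb1 were the only ligands in the list, which held no other interferon gene. With no levels in the table, a gene too dim to measure cannot be told apart from one that did not move.

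Of 13 measured interferon signal transducers and transcription factors, 4 rose in KO and 6 in WT, and none fell, where 1.08% of all genes in KO and 1.42% in WT were called higher. The list medians were 0.15 in KO and 0.24 in WT. Irf7, which drives type I interferon genes, rose by 0.98 in KO (SE 0.11, adjusted p = 1.94e-06, limma) and 0.91 in WT (SE 0.11, adjusted p = 4.88e-06). Stat2, a subunit of the factor that binds ISREs, rose by 0.38 in KO (SE 0.07) and 0.43 in WT (SE 0.07). Irf1, which binds GBP promoters, rose by 0.38 in KO (SE 0.08, adjusted p = 0.00684) and 0.34 in WT (SE 0.08, adjusted p = 0.0153). Nlrc5, the interferon-induced activator of MHC class I genes, rose by 0.31 in KO (SE 0.06) and 0.35 in WT (SE 0.06). Irf9, the partner of STAT2, rose by 0.33 in WT (SE 0.07, adjusted p = 0.00579), while its KO difference of 0.23 did not pass (adjusted p = 0.162), and the interaction was -0.10 (SE 0.10, adjusted p = 0.999994). Stat3 was the sixth gene called in WT (0.28, SE 0.06, adjusted p = 0.0102), while its KO difference of 0.15 did not pass (adjusted p = 0.648), and the interaction was -0.14 (adjusted p = 0.999994). Of 6 feedback inhibitors, Usp18, which blocks the type I receptor, alone was called (1.08% of all genes in KO and 1.42% in WT were called higher), at 1.30 in KO (SE 0.10) and 1.35 in WT (SE 0.10).

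Of 10 inflammasome and pyroptosis genes, through which GBPs act, 1 rose in each genotype (1.08% of all genes in KO and 1.42% in WT were called higher). Casp4, which encodes the caspase that binds cytosolic LPS, rose by 0.77 in KO (SE 0.12, adjusted p = 0.000403, limma) and 1.11 in WT (SE 0.12, adjusted p = 1.59e-06). Its values after LPS ran from -0.19 to 0.23 in KO (median 0.083) and from 0.016 to 0.87 in WT (median 0.26), and the genotype difference of -0.32 did not pass (SE 0.11, adjusted p = 0.340), nor did the interaction of -0.34 (SE 0.17, adjusted p = 0.999994). Casp1 had 0.046 in KO and 0.0042 in WT, and Gsdmd, which encodes the pore-forming substrate of both caspases, had 0.13 in KO (SE 0.07, adjusted p = 0.969) and 0.015 in WT (SE 0.07, adjusted p = 0.9997). Il1b had 0.31 in KO and 0.39 in WT, with adjusted p of 0.600 and 0.189.

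Prenylation anchors several GBPs in membranes, and 0 of 6 measured prenylation enzymes were called in either genotype (limma; 0 in KO and 1 in WT at an unadjusted p under 0.05, against 5.84% and 6.42% of all genes). Icmt, a methyltransferase that completes prenylation, had the smallest p, with -0.020 in KO and -0.12 in WT (adjusted p = 0.318). Fnta, a subunit of the farnesyl and geranylgeranyl transferases, had 0.050 in KO and -0.0086 in WT. Of 14 genes linked to ubiquitin-like conjugation, autophagy or vacuole recognition, 2 rose in each genotype. Among all genes, 1.08% in KO and 1.42% in WT were called higher. Rnf213, a ubiquitin ligase that modifies bacterial LPS, rose by 1.17 in KO (SE 0.12) and 1.25 in WT (SE 0.12), and Ube2l6, the conjugating enzyme of ISG15, by 0.34 in KO (SE 0.06) and 0.51 in WT (SE 0.06). The other 12, among them Atg5 and Atg7, were not called, and the list's median was -0.0045 in KO and 0.021 in WT.

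**Figure D4:**
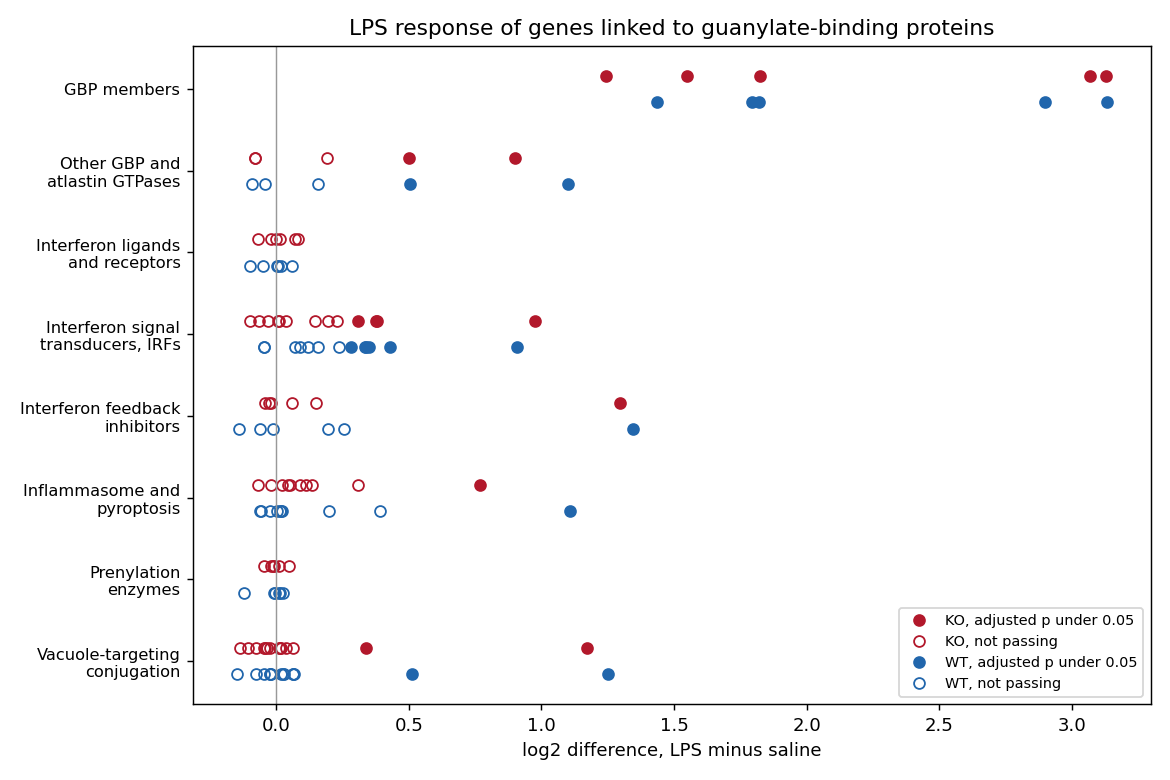
Log2 difference, LPS minus saline (horizontal axis), of each measured gene in the GBP list and 7 related lists, in KO (red, upper row of each list) and WT (blue, lower row), filled where the adjusted p was under 0.05. The 5 members lie between 1.24 and 3.13. None of the listed interferon ligands (Ifng and Ifnb1), interferon receptors or prenylation enzymes is filled.

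Cell type markers that moved with the same contrast are given as values, and their part in the GBP result was not tested. In bulk tissue, fewer cells of a type and less RNA per cell cannot be told apart. Of 9 measured brain endothelial markers, 7 fell in KO and 8 in WT (0.256% and 0.376% of all genes were called lower). Cldn5, a tight junction protein, fell by 1.08 in KO and 1.14 in WT, the transporter Slco1a4 by 1.08 in KO and 1.43 in WT, and the receptor Tek by 0.65 in KO and 0.74 in WT. Cdh5, an endothelial cadherin, had the opposite sign, with 0.13 in KO (SE 0.10, adjusted p = 0.9998) and 0.31 in WT (SE 0.10, adjusted p = 0.147), neither called. The mean of the 9 per array ran from -0.15 to 0.17 in KO after LPS, against 0.36 to 0.51 in KO after saline, and from -0.26 to -0.16 in WT after LPS, against 0.30 to 0.46 in WT after saline. Of 7 microglia markers, 0 were called in KO and 2 fell in WT (Cx3cr1 and Sall1), with means from -0.038 to 0.071 in KO after LPS, against 0.014 to 0.13 in KO after saline, and from -0.12 to -0.051 in WT after LPS, against 0.060 to 0.16 in WT after saline. Of the 9 T and NK cell, 5 monocyte, 8 neutrophil, 8 astrocyte, 6 pericyte and 6 neuron markers, 0 were called in either genotype. Over all genes, 1.34% in KO and 1.8% in WT were called in either direction, so 0 in lists this short is near that share. The medians of these lists lay between -0.022 and 0.083. Which markers were at background could not be read from centred values.

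The 5 members were called in both genotypes without the 3 arrays high in choroid plexus or pituitary markers. They were also called within arrays 1 to 11 and within arrays 12 to 22, but the first block holds 1 KO saline array and the second 1 WT saline array, and each lone array is assumed to vary like the other groups. Quantile normalization of the already normalized values lowered the differences to 0.83 to 1.73 in KO and 1.01 to 1.85 in WT, with all 5 still called.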

How the data were processed

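Gene expression was measured on 22 Affymetrix gene arrays. The authors' deposited values, for 28815 probe sets, were made with RMA, per the submitters' processing notes (version not given). Each probe set has a median of 0 across arrays (to within 7.02e-07), a centring found in the values and not stated. The deposited values were read as log2 values, although the log base was not stated, and every fold given rests on that reading. The genome build is not given in the sources used here. For arrays, precision depends on how many there are.

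Symbols came from the platform annotation, updated by gene ID through RefSeq (21689 of 21780 single-symbol probe sets matched). A further 1605 probe sets list several symbols and 5430 none. For 998 genes, several probe sets were averaged. limma 3.58.1 in R 4.3.3 fitted 1 mean per group over all arrays and tested 5 contrasts, two-sided, with p-values adjusted by the Benjamini-Hochberg method across 19935 genes. A call means an adjusted p under 0.05. The procedure was tested on simulated data. Shared probe sets were read from a fit of all probe sets. Intervals are the fit's 95% intervals. Replicates were numbered in deposition order.

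The genes named were the 7 members, up to 4 called genes of each list (or up to 2 with the smallest p), 9 interferon and caspase genes, and the 8 genes most like the mean of the 5 measured members. Marker lists are mostly given as counts. Il6, Il1b, Stat3, Ifnb1, Atg5, Atg7 and Cdh5 were added outside this rule after their values were seen. The members and lists were chosen with earlier results of these data known.

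Alternatives were leaving out each array in turn, leaving out the 3 arrays with high choroid plexus or pituitary markers, array number as a term or as separate blocks, normalization, array weights, robust moderation, probe sets tested singly, the groups in the fit and a filter on SD.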

Additional observations from a re-analysis of the deposited data

How the results depend on the processing

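Under 34 alternatives per LPS contrast, all 5 members stayed called in KO and in WT. Under the 34 alternatives of each genotype contrast and the 33 of the interaction, 0 members were called. The highest adjusted p of a member's LPS effect (limma) was 0.0217, for Gbp3 in WT within arrays 12 to 22, where the 1 WT saline array is assumed to vary like the other groups, as is the 1 KO saline array within arrays 1 to 11. Only uncalled differences changed sign. For KO against WT after LPS, Gbp3 was -0.013 with the array number block as a term, -0.023 with array number as a linear term and -0.033 within arrays 1 to 11. Gbp9 was -0.053 with the block, -0.044 with the linear term and -0.12 within arrays 12 to 22. Leaving out 1 array gave -0.024 to 0.11 for Gbp3 and -0.034 to 0.091 for Gbp9. For KO against WT after saline, Gbp3 was -0.027 with the block, -0.034 with the linear term and -0.23 within arrays 1 to 11, where Gbp7 was -0.038. Within arrays 12 to 22 Gbp4 was 0.034 and Gbp5 0.10. Leaving out 1 array gave -0.083 to 0.14 for Gbp3 and -0.11 to 0.022 for Gbp4. In the interaction, Gbp3 was -0.094 within arrays 12 to 22 and -0.070 with array weights, and Gbp5 was 0.11 within arrays 1 to 11. Leaving out 1 array gave -0.091 to 0.13 for Gbp3 and -0.075 to 0.060 for Gbp5.

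Counts over all genes moved by over 1.5 times in some settings. The LPS count of 359 in WT was 45 within arrays 12 to 22, and that of 267 in KO was 145 within arrays 1 to 11 and 166 within arrays 12 to 22, where fewer arrays were used. The count of 8 for KO against WT after LPS was 614 with array weights, 17 with quantile normalization, 16 without the genes of lower SD, 2 with the block, 1 with these 2 groups alone, 1 without the 3 arrays high in choroid plexus or pituitary markers and 0 within either block. Leaving out 1 array gave 2 to 47, the highest without KO LPS replicate 1 and the lowest without KO LPS replicate 6. The saline count of 1 ranged from 0 to 3. The causes were not tested. No paired analysis was possible because the titles give every array its own number and no number is shared between groups. No filter on signal strength was run, since centred values carry no level.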
